A study of Mus musculus with 42 samples.

Results

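The genes described here are the sarcomeric myosin light chains, the small subunits that wrap around the neck of the muscle myosin heavy chain. They were chosen by symbol, as the rows Myl1, Myl2, Myl3, Myl4, Myl6b, Myl7 and Mylpf of the RNA-seq count files, and make up 7 of the 24466 gene symbols counted. RNA was sequenced from iPax7 cells with Dox in the medium (+Dox, 0.75 µg/ml doxycycline in the sample labels, n = 3 libraries), from iPax7 cells 3 days after Dox was taken away (-Dox 3d, n = 2) and from satellite cells, the muscle stem cells, taken in vivo (n = 3). iPax7 cells are muscle precursors that were sorted as PDGFαR+Flk-1- from embryoid bodies of 1 mouse embryonic stem cell line in which Dox switches on Pax7, so both iPax7 groups share that line and its transgene. The satellite cells were isolated from muscle of a Pax7-ZsGreen reporter strain, and the sources used here give no age for the mice and do not say whether animals were pooled. Accessible chromatin (ATAC-seq) and histone marks (ChIP-seq) came as 1 merged peak list per population, for iPax7 cells with Dox and 3 days after its removal, for iPax7 cells 12 h and 24 h after removal (ATAC-seq only), for satellite cells (ATAC-seq only), and for C2C12 cells, a mouse myoblast line. C2C12 myoblasts were kept in 10% FBS and were unmodified (ATAC-seq only), carried a Pax7-flag construct or carried its flag control. Myotubes, the fused cells that myoblasts form, were made from iPax7 cells and from C2C12 cells in medium with 2% horse serum.

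Each muscle myosin head carries an essential (alkali) light chain and a regulatory light chain, and different muscles use different genes for each. Myl1 encodes the fast-muscle essential chains, Myl3 the essential chain of slow muscle and ventricle, Myl4 that of atrium and embryonic muscle, and Myl6b a further essential chain of slow muscle and non-muscle cells. Mylpf encodes the fast-muscle regulatory chain, Myl2 that of slow muscle and ventricle, and Myl7 that of atrium. Myl1 has alternative promoters that give a long and a short protein from 1 gene, and the short form is started inside the gene.

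The libraries held 39010958 to 54674619 counts on genes. Between 7.11% and 7.6% of reads in the iPax7 libraries and between 23.6% and 30.7% in the satellite cell libraries had been set aside in the authors' counting because they aligned to several places. Pax7, the induced gene, had 11610 to 14130 normalized counts in +Dox, 221 and 270 in -Dox 3d and 3926 to 8504 in satellite cells, where a normalized count is a count scaled by the TMM effective size of its library to the geometric mean size of the 8 libraries. All 10 satellite cell markers examined had counts in satellite cells. Of these, 8 were called higher and 1, Pax7 itself, lower than in +Dox (adjusted p under 0.05 in edgeR), against 25.1% and 19.8% of all genes tested. The summed level of the 10 markers ran from 756048 to 1211896 normalized counts in satellite cells and from 188455 to 266925 in +Dox. Most of that sum was Sdc4 in satellite cells (476110 to 786929) and Myf5 in +Dox (111006 to 190092). Satellite cell libraries also held more of the summed endothelial markers (16798 to 21348 normalized counts, against 344 to 950 in +Dox) and blood markers (2482 to 8957, against 0.0 to 28.5), fibroadipogenic markers (59138 to 109624, against 5248 to 12596), Schwann cell markers (2406 to 3677, against 16.5 to 57.8) and myofibre markers (8829 to 17111, against 2092 to 3008). Of the 6 fibroadipogenic markers 5 were called higher than in +Dox (25.1% of all genes). The other, Ly6a, was not called, with 852 to 4725 normalized counts in satellite cells and 2647 to 9643 in +Dox. Every one of the 6 endothelial and 7 myofibre markers was counted in satellite cells, and in +Dox Cdh5, Kdr and Pvalb were at 0 in all libraries. The myofibre markers were far higher in -Dox 3d, at 1242995 and 1197921 normalized counts. Most of the myofibre sum was Acta1, with 1161237 and 1108280 in -Dox 3d and 4628 to 9658 in satellite cells. In -Dox 3d 7 of 7 myofibre markers were called higher than in +Dox, against 4.66% of all genes tested. Cardiomyocyte markers summed to 505 to 843 normalized counts in +Dox, 814 to 905 in -Dox 3d and 0.0 to 142 in satellite cells, with Nppa at 0 in both iPax7 groups. Gata4 made up most of that sum in +Dox (423 to 783), and in -Dox 3d it stood at 358 and 281 beside 390 and 606 of Myh6, a gene that is also among the sarcomeric heavy chains below. The 5 pluripotency genes summed to 12.6 to 127 normalized counts in +Dox, 1.84 and 10.2 in -Dox 3d and 0.0 to 1.34 in satellite cells. Of these, Pou5f1 and Nanog were at 0 in all 8 libraries, while in +Dox Zfp42 had 12.6 to 39.2 normalized counts and Esrrb 0.0 to 82.9. The part of these other cells in the results below was not tested. In bulk RNA, fewer cells of a type and less RNA per cell cannot be told apart.

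The genes lie apart from each other in the genome (NCBIM37, mm9, with GENCODE M1 annotation). Myl1 spans chr1:66970869-66991978 on the - strand, Myl3 chr9:110666150-110672308, Myl4 chr11:104411977-104457067, Myl6b chr10:127931213-127935741 on the - strand, Mylpf chr7:134355122-134357812, Myl2 chr5:122550960-122563481 and Myl7 chr11:5796640-5798785 on the - strand. Coding sequences of the essential chains matched each other at 71.7% to 78.1% of aligned bases, and those of the regulatory chains at 64.6% to 69.6%. Myl1, Myl3, Mylpf and Myl7 shared no stretch of 51 bases with the coding transcripts of another gene, whereas Myl4 shared 1 such stretch, Myl6b 8 and Myl2 17, the last with the overlapping gene Ccdc63. Values of Myl2, and of Myl4, which overlaps the gene models Gm11661, Gm11663 and Gm11665, are uncertain to that extent, because the strand setting of the counting is not given in the sources used here.

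The 250 bases before 4 of the annotated starts are printed first, because these starts belong to the 3 genes with the most light chain RNA. They also have no start of another counted gene with 1 annotated locus within 3 kb. The nearest such start, that of Tbc1d10b, lies 3140 bases before Mylpf. Gene models outside that set were not searched. Start 1 of Myl1 is that of the long form and start 2 that of the short form, and start 2 of Myl4 is the inner of its starts. The annotated span of Myl1 reaches to 66991978, farther 5′ than start 1. The 250 bases printed before start 1 therefore lie within the annotated gene. Capitals mark CAGCTG (an E-box of the kind bound by MyoD), the MEF2 motif, and CATTCC or its reverse GGAATG (the core bound by TEAD factors), searched on both strands. The letters are from the NCBIM37 genome, 5′ to 3′ on the strand of the gene.
Myl1 start 1 (chr1:66991718-66991967, - strand): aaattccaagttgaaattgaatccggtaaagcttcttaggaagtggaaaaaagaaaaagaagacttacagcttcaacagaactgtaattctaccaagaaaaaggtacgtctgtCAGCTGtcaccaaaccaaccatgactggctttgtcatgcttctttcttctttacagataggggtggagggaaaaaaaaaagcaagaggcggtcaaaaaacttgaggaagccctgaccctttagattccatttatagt
Myl1 start 2 (chr1:66981929-66982178, - strand): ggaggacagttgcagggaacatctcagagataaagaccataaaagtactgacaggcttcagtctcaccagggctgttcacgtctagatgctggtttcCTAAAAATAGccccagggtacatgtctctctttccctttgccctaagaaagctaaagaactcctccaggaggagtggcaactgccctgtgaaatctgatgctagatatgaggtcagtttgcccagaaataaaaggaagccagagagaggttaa
Myl4 start 2 (chr11:104438049-104438298, + strand): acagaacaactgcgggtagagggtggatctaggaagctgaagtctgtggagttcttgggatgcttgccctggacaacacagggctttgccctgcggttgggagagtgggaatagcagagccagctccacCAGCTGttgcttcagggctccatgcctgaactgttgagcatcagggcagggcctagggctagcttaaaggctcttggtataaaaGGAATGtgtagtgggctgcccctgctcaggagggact
Mylpf (chr7:134354872-134355121, + strand): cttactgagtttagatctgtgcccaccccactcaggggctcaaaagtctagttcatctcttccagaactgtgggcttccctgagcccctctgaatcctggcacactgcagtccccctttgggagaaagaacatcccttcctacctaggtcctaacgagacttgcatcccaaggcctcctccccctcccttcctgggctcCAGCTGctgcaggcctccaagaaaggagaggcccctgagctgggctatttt

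CAGCTG was present 137 bases before start 1 of Myl1, 121 bases before start 2 of Myl4 and 51 bases before the start of Mylpf, and in 11.93% of the 20475 upstream regions of the same length. The MEF2 motif, found in 2.92% of all regions, was present 153 bases before start 2 of Myl1 and 26 bases before Myl2. CATTCC, found in 11.75%, stood 37 bases before start 2 of Myl4, 70 bases before Myl7 and at 2 places before Myl3. A CArG box, the motif of serum response factor, was present before Myl3 and Myl7 and in 1.39% of all regions. These matches are descriptions of the letters and do not show binding.

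The fast and embryonic light chains rose in iPax7 cells 3 days after Dox removal. Myl1, Myl4 and Mylpf rose by 147-fold to 5142-fold in group means, and the summed light chains went from 0.0055% to 0.0066% of all counts on genes in +Dox to 1.24% and 1.35% in -Dox 3d. Per length of transcript, Mylpf and Myl1 stood at ranks 4 and 7 of 20478 genes in -Dox 3d, by the length of all annotated exons. The slow and cardiac genes Myl2, Myl3 and Myl7 stayed at a mean of 135 normalized counts or lower. Of the 6 members that passed the filter on low counts, 3 were called higher in -Dox 3d with an adjusted p under 0.05 (edgeR quasi-likelihood test with Benjamini-Hochberg adjustment over 14836 genes), against 4.66% of all genes tested. The median log2 fold change of these 6 members was 6.73, beside -0.0049 over all genes tested. That median falls between the values of Mylpf (7.20) and Myl3 (6.26). The value of Myl3 rests on 20 reads in 1 -Dox 3d library and was not called, and Myl7 is not in the median.

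Myl1, the fast essential chain, had 991, 1271 and 1620 normalized counts in the +Dox libraries and 361597 and 330000 in the -Dox 3d libraries. Each -Dox 3d library lay above every +Dox library. The log2 fold change was 8.06 (SE 0.728, adjusted p = 0.000223, edgeR quasi-likelihood test). In the +Dox libraries Myl1 had 0.86 to 1.28 times the counts of the regulatory chain Mylpf.

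Mylpf, the fast regulatory chain, had 1152, 1255 and 1268 normalized counts in +Dox, the smallest relative spread of any member, and 190810 and 170548 in -Dox 3d. Its log2 fold change was 7.20 (SE 0.476, adjusted p = 4.24e-05, edgeR quasi-likelihood test). Myl4, the atrial and embryonic essential chain, had only 1.5, 29.6 and 22.8 normalized counts in +Dox, with 2 reads in replicate 1, and reached 99827 and 84897 in -Dox 3d. The log2 fold change of Myl4 was 12.33 (SE 0.966, adjusted p = 9.13e-05, edgeR quasi-likelihood test), which placed it 22nd from the top among 14836 genes, and Myl1 and Mylpf at positions 199 and 288.

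Myl2, the slow and ventricular regulatory chain, had 7.5, 0.0 and 0.0 normalized counts in +Dox and 120 and 150 in -Dox 3d. The groups did not overlap, but the difference did not pass the test (log2 fold change 5.67, SE 1.88, adjusted p = 0.107, edgeR quasi-likelihood test). It passed without +Dox replicate 1, the library with all 10 of the Myl2 reads in that group (adjusted p = 0.0394, edgeR), and in DESeq2 (adjusted p = 0.0197). Myl6b, an essential chain of slow muscle and non-muscle cells, stayed near the floor with 0.0 to 8.9 normalized counts in +Dox and 18.4 and 12.9 in -Dox 3d (log2 fold change 1.60, SE 1.80, adjusted p = 0.704, edgeR quasi-likelihood test).

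Myl3, the slow and ventricular essential chain, was not counted in +Dox, and in -Dox 3d it had 20 reads in replicate 1 and 0 in replicate 2. Against the limit that a count of 0 allows, taken as 3 reads per library, its mean in -Dox 3d was at least 3.83-fold higher, a value that rests on replicate 1 alone, and the test did not pass (adjusted p = 0.256, edgeR quasi-likelihood test). Myl7, the atrial regulatory chain, had 0 reads in all 8 libraries, which allows up to 2.22 to 4.02 normalized counts per library, and was below the filter. These limits cover counting error only. In 5 of the 6 tested members every -Dox 3d library was above every +Dox library, which was so for 22.7% of all genes tested.

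**Figure D1:**
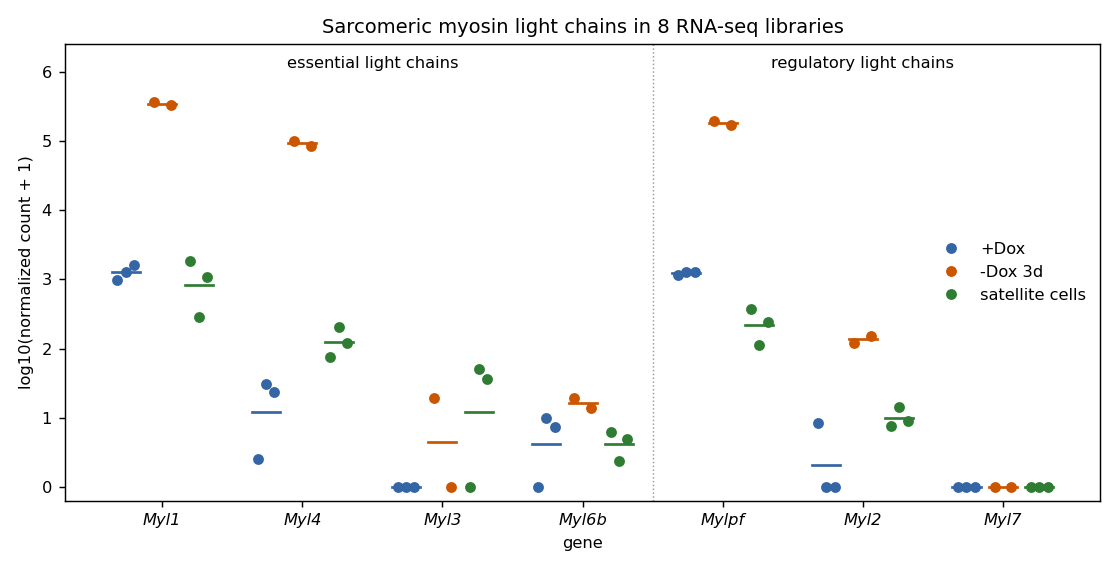
Normalized counts of the 7 genes on a log10(normalized count + 1) axis, with 1 point per library and a bar at the mean of the log values for +Dox (n = 3), -Dox 3d (n = 2) and satellite cells (n = 3). Myl1, Myl4 and Mylpf in -Dox 3d stand well above both other groups, and Myl7 is at 0 in all 8 libraries.

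Satellite cells had 659 to 2314 normalized counts of all members together, a range that overlapped the 2152 to 2918 of +Dox. Mylpf was lower and Myl4 higher in satellite cells than in +Dox, while Myl1 overlapped between the groups. Of the 6 members tested 1 was called higher and 1 lower, against 25.1% and 19.8% of all genes tested (adjusted p under 0.05, edgeR quasi-likelihood test), so members were not called more often than genes at large. These 2 genes were also the members whose groups did not overlap, beside 30.2% of all genes with every satellite cell library higher and 26.3% with every one lower.

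Myl1 had 1861, 280 and 1064 normalized counts in satellite cell replicates 1, 2 and 3, a range that took in all of the +Dox values (log2 fold change -0.28, SE 0.529, adjusted p = 0.702, edgeR quasi-likelihood test). Mylpf had 366, 111 and 244 normalized counts, and every satellite cell library was below every +Dox library, with a log2 fold change of -2.35 (SE 0.378, adjusted p = 0.00107, edgeR quasi-likelihood test). Replicate 2 was the lowest of the satellite cell libraries for both genes. The summed myofibre markers were ordered in the same way over these libraries, at 17111, 8829 and 12037 normalized counts. Of these, 9658, 4628 and 7032 were Acta1. The part of fibre RNA in the levels of Myl1 and Mylpf was not tested.

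Myl4 had 75.0, 204 and 119 normalized counts in satellite cells, and replicate 2 was here the highest. Each value was above all +Dox values, by a log2 fold change of 2.88 (SE 0.692, adjusted p = 0.00846, edgeR quasi-likelihood test). With only the libraries of +Dox and satellite cells in the fit, the change of Myl4 was 2.81 and no longer passed (adjusted p = 0.0818, edgeR). Myl3 had 0.0, 49.6 and 35.6 normalized counts in satellite cells, a mean at least 11.8-fold above the limit for +Dox, and missed the threshold (adjusted p = 0.0625, edgeR quasi-likelihood test). Without satellite cell replicate 1, the library with no Myl3 reads, it passed (adjusted p = 0.0391, edgeR). Myl2 had 6.6, 13.4 and 7.9 normalized counts and Myl6b 5.3, 1.3 and 4.0, and neither passed the test against +Dox. Myl2 did pass without +Dox replicate 1 (log2 fold change 6.18, adjusted p = 0.0321, edgeR).

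Compared with -Dox 3d, satellite cells had 324-fold less Myl1, 752-fold less Mylpf and 697-fold less Myl4 in group means. The log2 fold changes were -8.34 (SE 0.736), -9.55 (SE 0.523) and -9.44 (SE 0.867), with adjusted p of 7.26e-05, 8.33e-06 and 8.97e-05 from edgeR's quasi-likelihood test. These 3 of 6 members tested were called lower, against 18.1% of all genes, and in 5 of the 6 every satellite cell library was below every -Dox 3d library, against 30.6% of all genes. Myl2 fell short of the threshold (log2 fold change -3.84, SE 1.75, adjusted p = 0.107, edgeR quasi-likelihood test) and passed with only the 2 conditions in the fit (adjusted p = 0.032, edgeR). Myl3 was the 1 tested member with a higher mean in satellite cells than in -Dox 3d (28.4 ± 25.6, SD, n = 3, against 9.19 ± 13.0, SD, n = 2, normalized counts), a difference smaller than the spread between libraries. The 3 comparisons share libraries in pairs and are not independent of each other.

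**Figure D2:**
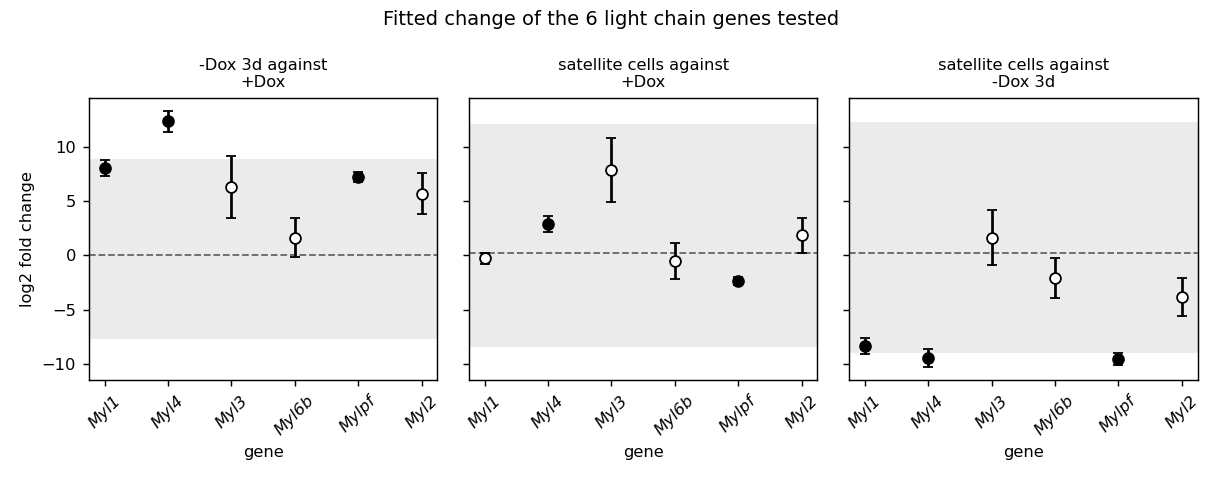
Fitted log2 fold changes of the 6 members tested in the 3 comparisons, with bars of 1 standard error. Filled points passed an adjusted p under 0.05 in edgeR, open points did not, the dashed line is the median of all 14836 genes and the grey band runs from their 1st to their 99th percentile. The 3 fast and embryonic genes are filled in the left and right panels, whereas Myl4 and Mylpf are filled on opposite sides of 0 in the middle panel.

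The levels of the genes were next compared with each other within each group, as normalized counts per kb of annotated exon. In +Dox the order was Mylpf (1385 ± 71.9, SD, n = 3), Myl1 (731 ± 178), Myl6b (4.96 ± 4.46), Myl4 (3.87 ± 3.16), Myl2 (1.28 ± 2.22), and then Myl3 and Myl7 at 0. Mylpf and Myl1 did not overlap there, and Myl6b, Myl4 and Myl2 did. In -Dox 3d the order was Mylpf (204157 ± 16190, SD, n = 2), Myl1 (195256 ± 12616), Myl4 (19918 ± 2277), Myl2 (69.2 ± 10.6), Myl6b (15.3 ± 3.76) and Myl3 (7.04 ± 9.95). Mylpf and Myl1 overlapped in -Dox 3d, as did Myl6b and Myl3. In satellite cells the order was Myl1 (603 ± 446, SD, n = 3), Mylpf (272 ± 144), Myl4 (28.6 ± 14.1), Myl3 (21.7 ± 19.6), Myl2 (4.77 ± 1.85) and Myl6b (3.43 ± 1.95), and each neighbouring pair overlapped except Mylpf and Myl4. Overlap here means that the ranges over the libraries of a group meet. Within each satellite cell library Myl1 was above Mylpf, at 2.54, 1.26 and 2.18 times its level in replicates 1, 2 and 3. Parts of these orders turn with the length. In -Dox 3d Myl1 had 0.947 and 0.967 times the level of Mylpf by all exons, but 1.34 and 1.37 times by the longest transcript, 1.71 and 1.74 times by the coding length and 1.90 and 1.94 times in counts, with no overlap of the 2 genes under the last 3. In +Dox the ratio was 0.43 to 0.638 by all exons and 0.609 to 0.904 by the longest transcript, whereas by the coding length (0.773 to 1.15) and in counts (0.86 to 1.28) the 2 genes overlapped. Myl4 stood above Myl6b in +Dox under the other 3 measures, and Mylpf and Myl4 overlapped in satellite cells by the coding length and in counts.

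Within the essential class, Myl1 made up 97.9% to 99.9% of reads per base in the +Dox libraries, and Myl4 made up 0.0579%, 0.872% and 0.53%. In -Dox 3d the share of Myl4 was 9.54% and 8.95%, above all +Dox libraries, and Myl1 held 90.4% and 91.0% of the class. Satellite cell libraries were unlike each other. Myl4 held 1.51%, 18.2% and 3.89% of the essential class in replicates 1, 2 and 3, and Myl3 held 0.0%, 15.7% and 4.15%, so that replicate 2 had the most mixed class. Without replicate 2 the mean Myl4 share in satellite cells was 2.70% in place of 7.87%. The shares depend on the length used, because the annotated exons of Myl4 add up to 4637 bases against 1771 for Myl1. With the coding length in its place, chosen after the data were seen, the Myl4 share was 21.2% and 20.0% in -Dox 3d and 0.147% to 2.21% in +Dox, and the order of these groups was the same.

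Within the regulatory class Mylpf made up 99.7% to 100.0% of reads per base in +Dox, 99.97% and 99.96% in -Dox 3d and 94.8% to 99.2% in satellite cells. Myl2 supplied the rest, with 0.81%, 5.19% and 1.45% in the satellite cell libraries, values that come from 5, 10 and 6 reads. The balance between the classes also differed by group. Essential chains summed to 0.429, 0.516 and 0.646 times the regulatory chains per base in +Dox, 1.05 and 1.06 times in -Dox 3d, and 2.57, 1.82 and 2.35 times in satellite cells. The groups did not overlap in this ratio under any of the 4 lengths tried, although with the coding length the values were 0.77 to 1.17, 2.16 to 2.18 and 3.81 to 4.69. The counts of Myl1 over those of Mylpf, in which no length is used, were 0.86 to 1.28 in +Dox, 1.90 and 1.94 in -Dox 3d and 2.52 to 5.09 in satellite cells. Counts per gene do not separate the long and short forms of Myl1, so the part of their mix in these ratios was not tested.

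**Figure D3:**
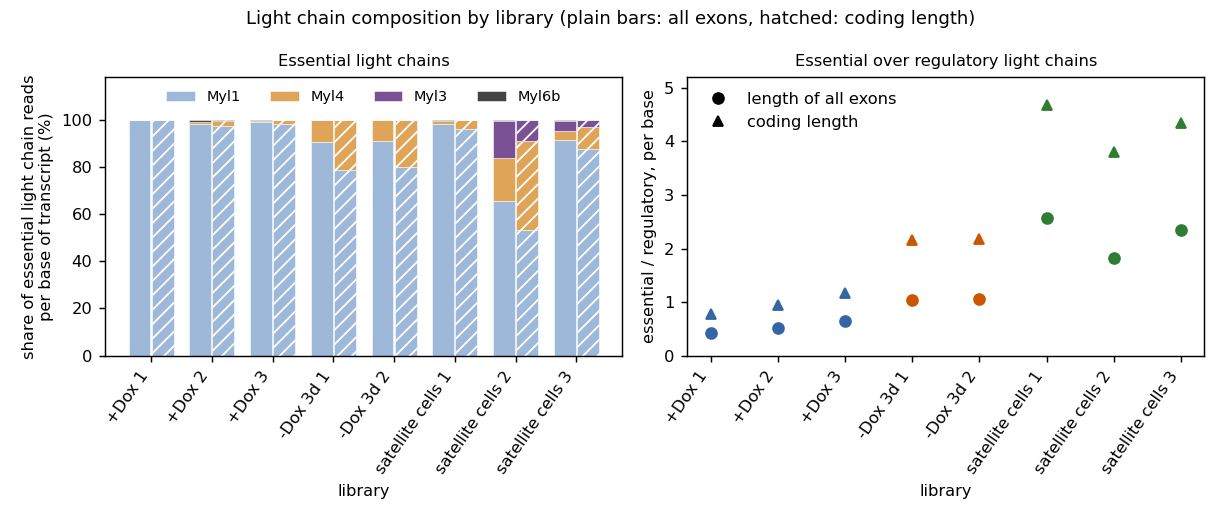
Left, share of each essential light chain in the reads per base of its class in each of the 8 libraries, by the length of all exons (plain) or the coding length (hatched). Right, essential over regulatory light chains per base with the same lengths (circles and triangles). Myl4 takes 9.54% and 8.95% (plain) in -Dox 3d, satellite cell replicate 2 has the most mixed class, and the ratio of the classes is lowest in +Dox and highest in satellite cells.

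The proteins that carry, modify and fold with the light chains were examined from lists written for this purpose. Their counts stand beside the shares of all 14836 genes tested that were called: 4.66% higher in -Dox 3d than in +Dox, 25.1% higher and 19.8% lower in satellite cells than in +Dox, and 20.9% higher and 18.1% lower in satellite cells than in -Dox 3d. Among the sarcomeric heavy chains, the motors that the light chains bind, 7 of 9 tested were higher in -Dox 3d than in +Dox (4.66% of all genes), with a median log2 fold change of 10.35. The 3 largest called changes were in Myh1, the adult fast IIx chain (log2 fold change 14.34), Myh7, the slow and cardiac chain (13.01), and Myh8, the perinatal chain (10.90). Myh3, the embryonic chain, had the most reads of the list in -Dox 3d, with 57336 and 68575 normalized counts. Satellite cells had 3 of 9 higher and 1 lower than +Dox, near the 25.1% and 19.8% of all genes, namely Myh1 (6.44), Myh2, the fast IIa chain (5.09), Myh13, the extraocular chain, which had no reads in +Dox and 56.6, 0.0 and 69.9 normalized counts in satellite cells, and Myh3 (-3.69). The calls of Myh13 and Myh3 were lost in 8 of 12 and 4 of 13 alternatives, among them leaving out +Dox replicate 2 or satellite cell replicate 1 or 3. Against -Dox 3d, 6 of 9 were lower in satellite cells, among them Myh3 (-12.85), Myh7 (-10.42) and the cardiac chain Myh6, which was not counted in any satellite cell library.

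Of the 3 tested kinases that phosphorylate the regulatory chain, 2 were called higher in -Dox 3d than in +Dox (4.66% of all genes). Satellite cells had all 3 higher than +Dox (25.1% of all genes). Mylk4 was higher in -Dox 3d than in +Dox (6438 and 7058 normalized counts, against 0.7 to 17.3, log2 fold change 9.84). So was the smooth muscle and non-muscle kinase Mylk (2.27). Mylk was also called higher in satellite cells than in +Dox (3.14). It had 484 to 892 normalized counts in satellite cells, 394 and 413 in -Dox 3d and 65.9 to 113.8 in +Dox. Between satellite cells and -Dox 3d the difference of Mylk was not called (adjusted p = 0.205, edgeR quasi-likelihood test). Mylk2, the skeletal muscle kinase, had 366, 206 and 207 normalized counts in satellite cells, at most 6.5 in -Dox 3d and no reads in +Dox, and was called higher in satellite cells than in either iPax7 group (at least 108-fold against the limit for +Dox, log2 fold change 6.09 against -Dox 3d). Mylk4 in satellite cells ran from 4.0 in replicate 2 over 51.4 in replicate 3 to 500.3 in replicate 1, and was called higher than in +Dox (4.66) and lower than in -Dox 3d (-5.19). The first of these calls was lost with only the 2 conditions in the fit and with a block for replicate number. It was also lost without satellite cell replicate 1 or without +Dox replicate 1 or 2, the other call without satellite cell replicate 3. The rise of Mylk in -Dox 3d was lost with the same block and without +Dox replicate 1 or 2 or either -Dox 3d library. The call of Mylk2 over -Dox 3d was lost without -Dox 3d replicate 1. Of the subunits of myosin phosphatase, the enzyme that reverses these kinases, all 4 were higher in satellite cells than in +Dox (25.1% of all genes), led by Ppp1r12b (3.71), Ppp1r12c (2.62) and the catalytic subunit Ppp1cb (1.33), of which Ppp1r12b was lost without +Dox replicate 1 or 2 or satellite cell replicate 2. Against -Dox 3d, Ppp1r12c (2.47) and Ppp1cb (1.14) were higher, and Ppp1cb was lost without either -Dox 3d library. In -Dox 3d their log2 fold changes ran from 0.15 to 0.87, with 0 of 4 called in edgeR, 1 at an unadjusted p under 0.05 and 1 in DESeq2.

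Light chains of non-muscle and smooth muscle myosin had a median log2 fold change of 0.45 in -Dox 3d. Myl9, the smooth muscle regulatory chain, was the 1 of 4 tested that was called higher in -Dox 3d (log2 fold change 2.03), and it was higher again in satellite cells (3.47 against +Dox and 1.44 against -Dox 3d). Myl6, the common non-muscle essential chain and the neighbour of Myl6b, had a mean of 26438 normalized counts in +Dox and 27233 in -Dox 3d, and was lower in satellite cells than in +Dox (-1.02) and -Dox 3d (-1.06). The differences of Myl6 and Myl9 from -Dox 3d were lost without either -Dox 3d library, and the rise of Myl9 in -Dox 3d without +Dox replicate 1 or 2 or -Dox 3d replicate 2. These 2 calls of Myl9 were also lost with a block for replicate number. Smooth muscle markers, of which Myh11 is one, summed to 4420 to 7801 normalized counts in +Dox, 65374 and 66612 in -Dox 3d and 41787 to 56357 in satellite cells, and their part in these levels was not tested. In -Dox 3d that sum was almost all Acta2 (53987 and 53844) and Des (11342 and 12656), a gene of striated muscle too, while Kcnj8 was at 0, Cnn1 had fallen to 0 in both libraries (from 21.5 to 60.1 in +Dox, adjusted p = 0.0371, edgeR quasi-likelihood test) and Myh11 stood at 0.0 and 71.1. Of the non-sarcomeric heavy chains, Myh9 (-1.16) and Myh10 (-2.24), both of non-muscle myosin II, were lower in satellite cells than in +Dox, and the smooth muscle chain Myh11 was higher, at least 531-fold against the limit for +Dox. Myh11 was the 1 of 3 called against -Dox 3d (5.16), a call lost in DESeq2 and without any 1 satellite cell library.

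Among 5 factors for myosin folding and assembly, Unc45b, the muscle myosin chaperone (log2 fold change 6.97), and Smyd1, a methyltransferase that acts on myosin assembly (4.80), were higher in -Dox 3d than in +Dox. The call of Smyd1 was lost without any 1 of the 5 iPax7 libraries. Unc45b had 32.3 to 37.0 normalized counts in +Dox, 4414 and 4289 in -Dox 3d and 346 to 561 in satellite cells, and the groups did not overlap. Satellite cells had 4 of the 5 higher than +Dox (25.1% of all genes), led by Unc45b (3.80), Hsp90aa1, an inducible form of Hsp90 (2.02), and Unc45a, the general form of Unc45 (1.79). Against -Dox 3d, Unc45a (2.66) and Hsp90aa1 (2.27) were higher and Smyd1 (-7.54) and Unc45b (-3.17) lower in satellite cells. All changes given for these lists passed an adjusted p under 0.05 in edgeR unless another count is stated.

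**Figure D4:**
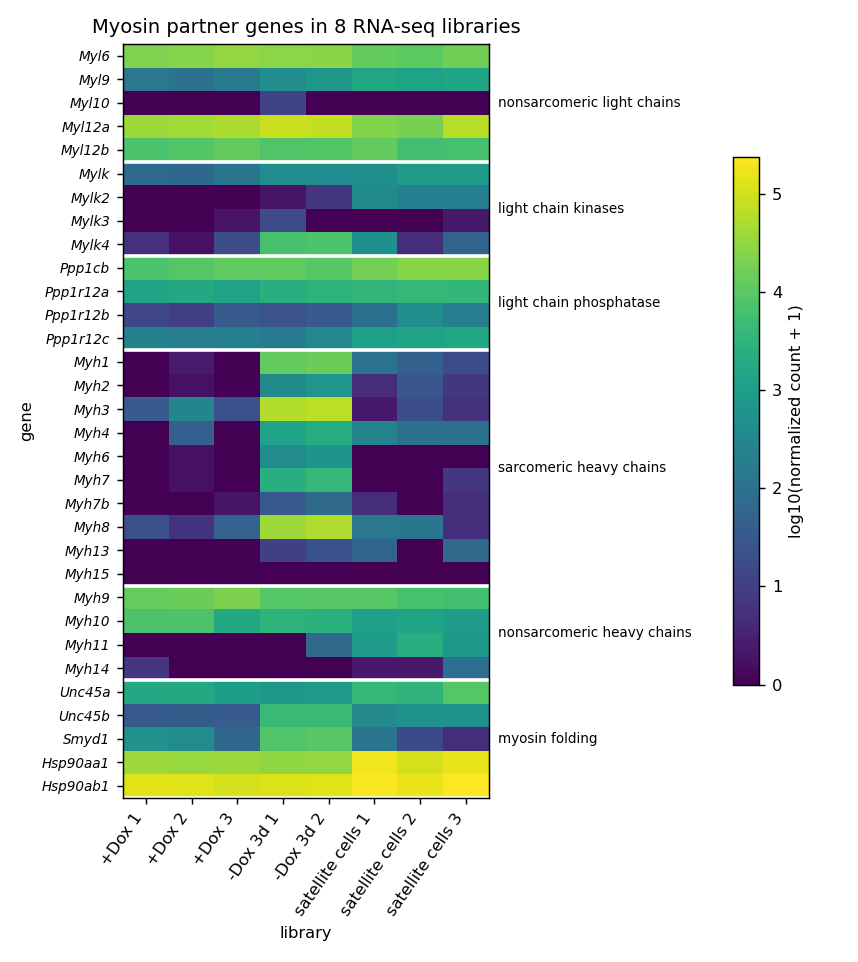
Levels of the partner genes in the 8 libraries as log10(normalized count + 1), 1 row per gene and 1 column per library, grouped by list. The sarcomeric heavy chains other than Myh13 and Myh15, and Mylk4, Unc45b and Smyd1 are brightest in both -Dox 3d libraries, whereas Mylk2 and Myh11 are brightest in satellite cells.

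The genes with the profile nearest to each member over the 8 libraries were found by the root mean square distance of centred log2(normalized count + 1) values. Those nearest to Myl1 were Tnnt3 (distance 0.51) and Tnni2 (0.75), both fast troponin subunits, and Smpx (0.67), a small muscle protein. Nearest to Mylpf were the slow troponin Tnni1 (0.65), Myl1 itself (0.87) and Trim55 (0.95), a sarcomere-associated ubiquitin ligase. Nearest to Myl4 were Trdn (1.27), which encodes triadin of the calcium release unit, the cardiac actin Actc1 (1.40) and Myh1 (1.44). For the members with few reads the nearest were Zswim6, Ovgp1 and Rps6ka3 (Myl3, distances 1.01 to 1.46), Npl, Sfrp2 and Rilpl1 (Myl6b, 0.58 to 0.73), and Afap1l1, Pdlim3 and Tmem38a (Myl2, 0.88 to 0.97). The 8 libraries fall in 3 groups, which all these profiles share.

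Chromatin at the starts was described from the peak lists, as peaks that reach within 1 kb of any of the 9 annotated starts of the members. Each population has 1 merged list, so differences between populations have no replicate check. ATAC-seq height is given as fold over the expected pileup of its own library. In +Dox 4 of 7 members had an ATAC-seq peak at a start, in -Dox 3d 3 of 7 and in satellite cells 2 of 7, beside 64.2%, 66.7% and 59.6% of all genes with 1 annotated locus. These lists held 135564, 172103 and 90464 peaks. The count was 2 of 7 at 12 h (background 62.3%), 3 of 7 at 24 h (65.5%), 4 of 7 in iPax7 myotubes (62.8%) and 4 of 7 in C2C12 myotubes (54.8%). C2C12 myoblasts had 2 of 7 (45.5%), as did C2C12 cells with the flag control (56.5%) and with Pax7-flag (57.6%). These shares of members lie near or below those of all genes, so only the position and height at each start are described.

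Start 2 of Myl1, that of the short form, had no ATAC-seq peak in +Dox, 12 h after Dox removal or satellite cells. A peak of 5.30-fold was listed there at 24 h and one of 4.81-fold at 3 days, with summits 97 and 62 bases before the start, and myotubes from iPax7 cells and from C2C12 cells had 8.82-fold and 22.3-fold peaks. Start 1 of Myl1, that of the long form, already had a 5.42-fold peak in +Dox, 185 bases before the start, had none listed at 12 h and 24 h, and had a low peak of 2.22-fold at 3 days. In myotubes start 1 had peaks of 12.3-fold (iPax7) and 8.93-fold (C2C12).

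Start 2 of Myl4 was without a peak in +Dox and at 12 h, 24 h and 3 days, although Myl4 had reached 84897 normalized counts or more at 3 days. Peaks were listed there in myotubes (18.4-fold in iPax7 and 13.4-fold in C2C12, with summits 59 and 61 bases before the start), and a low one of 2.54-fold in satellite cells. At start 1 of Myl4 a peak was listed in all 10 populations, from 8.34-fold to 57.0-fold, but the start of Cdc27 lies 180 bases away, so the signal cannot be told apart between the genes. The same holds for Myl6b, with peaks of 14.7-fold to 76.7-fold in all 10 populations and the start of A430046D13Rik 679 bases away.

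Mylpf had its highest peak not at the start but about 1 kb before it, at -1066 in +Dox (3.19-fold), -1067 in iPax7 myotubes (22.3-fold) and -1070 in C2C12 myotubes (15.3-fold). In both kinds of myotubes a separate summit lay at the start itself (17 and 43 bases after it, at 12.5-fold and 11.0-fold). No peak reached within 1 kb at 12 h, 24 h or 3 days, although the RNA had risen at 3 days. The summit before Mylpf lies outside the 1 kb window, so a peak there counts only if its edge reaches in. In +Dox Mylpf is counted on that edge alone, and peaks that end farther out were not looked for. Myl2, Myl3 and Myl7 had no ATAC-seq peak within 1 kb in any of the 10 populations.

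Histone marks were compared between +Dox and -Dox 3d. Of the 2001 bases around a start, peaks of H3K4me3, a mark of active promoters, covered 0 in +Dox and 831 in -Dox 3d at start 1 of Myl1, 0 and 1402 at start 2 of Myl1, and 0 and 636 at start 2 of Myl4. H3K27Ac, a mark of active promoters and enhancers, covered 190 and 753, 0 and 1303, and 0 and 701 bases at the same starts. Mylpf differed from these in that it was already marked in +Dox, with 1309 bases of H3K4me3 and 1265 of H3K27Ac, and 1539 and 1675 in -Dox 3d. Counted by gene, 3 of 7 members had H3K4me3 in +Dox and 4 of 7 in -Dox 3d, beside 61.9% and 67.8% of all genes. H3K27Ac was present at 4 of 7 members in both (background 49.3% and 46.2%). H3K4me3 peaks covered 63.6 megabases in the +Dox list and 155 in the -Dox 3d list, and the part of that in the gains was not tested. H3K27Ac peaks covered 73.1 megabases in the +Dox list and 49.2 in the -Dox 3d list, and the part of that in the changes of H3K27Ac was not tested either. H3K4me1, which marks enhancers and the flanks of promoters, was present at 4 of 7 members in +Dox and 5 of 7 in -Dox 3d (background 63.3% and 66.6%). In +Dox and -Dox 3d it covered 1188 and 789 bases at start 1 of Myl1, 0 and 510 at start 2 of Myl1, 1752 and 1197 at start 1 of Myl4 and 0 and 586 at start 2 of Myl4. It covered 1574 and 1277 bases at Myl6b, 1071 and 1788 at Mylpf and 0 and 641 at Myl7, so the mark was shorter at 3 of these starts and longer at 4. H3K4me1 peaks covered 128 megabases in +Dox and 155 in -Dox 3d.

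H3K27me3, the repressive mark of Polycomb, was listed at the starts of Myl2, Myl3 and Myl7 in both conditions, and in neither at Myl6b, which also had few reads. It covered 1227 and 1010 bases at Myl2, 390 and 1447 at Myl3, and 187 and 260 at Myl7 in +Dox and -Dox 3d, and 245 bases at start 2 of Myl4 in -Dox 3d. These were 3 and 4 of 7 members, beside 22.1% and 20.2% of all genes. H3K27me3 peaks covered 91.7 megabases in +Dox and 65.9 in -Dox 3d. In C2C12 flag control myoblasts H3K27me3 covered all 2001 bases at Myl2, and 1018 and 921 bases at starts 1 and 2 of Myl1. C2C12 cells with Pax7-flag had 2001 bases at Myl2, 1537 and 852 at the starts of Myl1 and 1717 at Myl3. That makes 2 of 7 members in the control and 3 of 7 with Pax7-flag, beside 18.9% and 21.6% of all genes. H3K27me3 peaks covered 130 megabases in the control and 161 with Pax7-flag, and the part of that in the difference at Myl3 was not tested. Start 2 of Myl4 and Mylpf had no H3K27me3 in either kind of C2C12 myoblast.

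No Pax7 binding site lay within 1 kb of a start of any member, and 1.48% of all genes had one. The nearest Pax7 site was 18.2 kb from Myl3, 34.8 kb from start 2 of Myl4 and 210 kb from Mylpf, and for Myl1, Myl2, Myl6b and Myl7 it was 249 kb or farther.

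**Figure D5:**
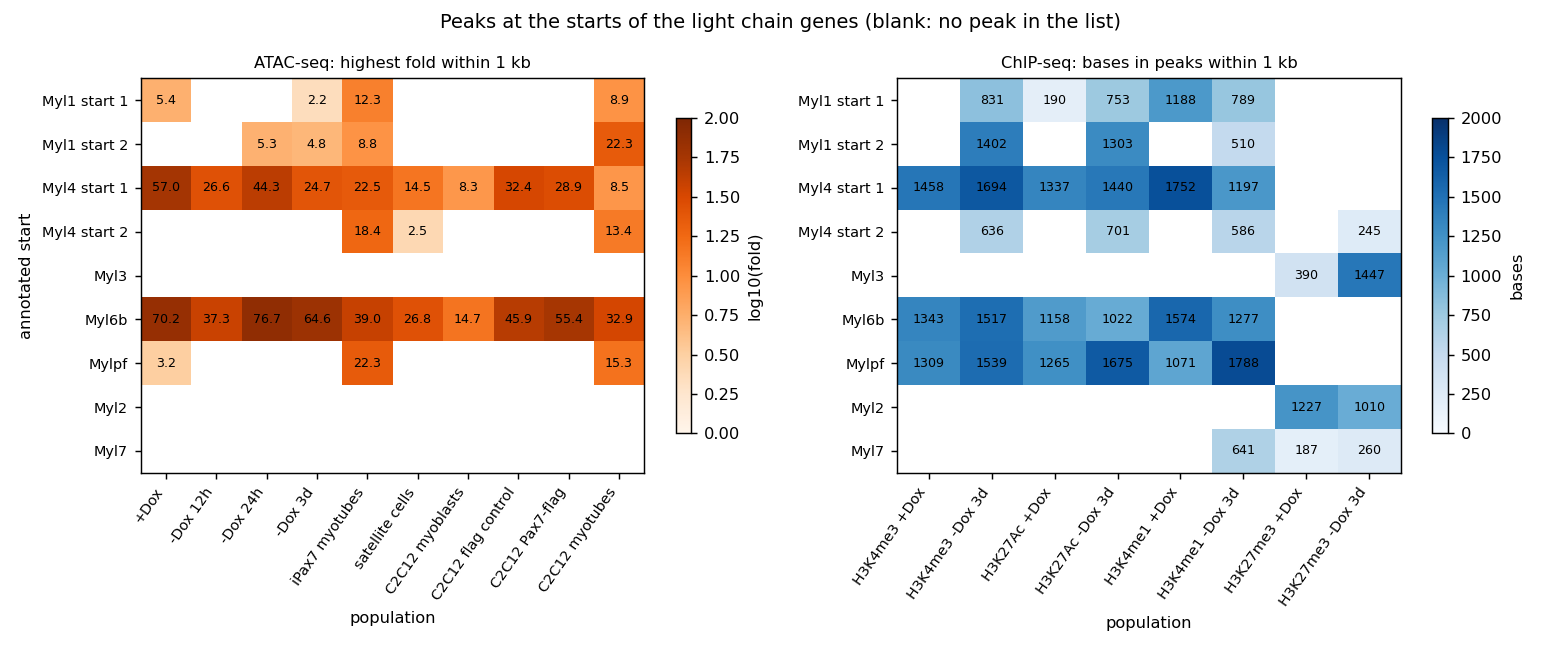
Peaks within 1 kb of the 9 annotated starts. Left, highest ATAC-seq fold in each of 10 populations (colour on a log10 scale), and right, bases within 1 kb of a start in peaks of 4 histone marks in +Dox and -Dox 3d, with blanks where no peak was listed. Start 2 of Myl1 and start 2 of Myl4 have H3K4me3 and H3K27Ac peaks in -Dox 3d and none in +Dox, Myl4 start 1 and Myl6b are open in all populations, and Myl2, Myl3 and Myl7 carry H3K27me3 and no ATAC-seq peak.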

How the data were processed

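RNA-seq was available for iPax7 cells with Dox (3 libraries), iPax7 cells 3 days after Dox removal (2) and satellite cells (3). Tables of raw counts, 1 value per gene symbol in the layout of HTSeq-count, were deposited by the authors, and the submitters' processing notes name HTSeq 0.6, TopHat2 2.0 and Bowtie2 2.2 without a role. Read length and strand setting of the RNA-seq are not given in the sources used here. The 3 groups are those of the sample labels. Replicate numbers come from the deposited files' names and the study gives the numbers of replicates; nothing states separate cultures or animals, so p-values measure the spread between these libraries. Every pair of libraries within a group differed by more than sampling noise. Rows that name no gene were left out (ambiguous reads were 1.51% to 2.32%, reads without a feature at most 0.0031%).

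ATAC-seq peaks were called by the authors with MACS2 2.0.10 on merged replicates aligned to mm9 with Bowtie2 2.2.6, with read ends shifted for the transposase, and the deposited fold (ratio over expected pileup) and −log10 q were read. ChIP-seq peaks from Qeseq were deposited as positions with no height. Histone lists were made from merged replicates, and the Pax7 list keeps sites found in at least 2 +Dox samples and in no -Dox replicate.

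Counts were tested in edgeR 4.0.16 (R 4.3.3) with the quasi-likelihood test, TMM normalization, filterByExpr (14836 genes kept), all 8 libraries in 1 fit and Benjamini-Hochberg adjustment over all genes. Standard errors (SE) were obtained by dividing the absolute log2 fold change by the square root of F. An exact permutation test of 3 against 2 or 3 libraries cannot give a p below 0.1. Exon lengths, starts and sequences are those of GENCODE M1 on NCBIM37, which holds every peak end of 21 chromosomes, and 20478 genes with 1 locus were matched by symbol. Shares are reads per base within the essential or regulatory class and carry no test. The script was tested on simulated counts.

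The members and lists were chosen with earlier results of these data known. Named genes are the 7 members, Pax7, up to 3 called genes with the largest change per list, comparison and direction, and the 3 nearest profiles of each member among genes with a mean of at least 100 normalized counts; Myh3 in -Dox 3d, Myl6 and Mylk4 values outside that rule were given after they were seen. Alternatives were RLE size factors, no filter beyond 1 count, DESeq2 1.42.0, fits on 2 conditions alone, a block for replicate number, leaving out each library, other lengths for shares and other windows for peaks.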

Additional observations from a re-analysis of the deposited data

How the results depend on the processing

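Myl1, Mylpf and Myl4 stayed called in -Dox 3d against +Dox and in satellite cells against -Dox 3d under every alternative run, as did Mylpf in satellite cells against +Dox. Leaving out 1 library at a time gave log2 fold changes of 7.91 to 8.26, 7.12 to 7.29 and 11.78 to 12.93 for Myl1, Mylpf and Myl4 in -Dox 3d against +Dox. The count of all genes called in that comparison was 1142. It was 2138 in DESeq2 (52.5% higher, against 60.5%), 2155 with only the 2 conditions in the fit (52.3% higher), 742 with a replicate block and 488 to 1444 with 1 library left out. With 1 library left out, satellite cells against -Dox 3d gave 3204 to 6131 genes in place of 5780. The cause was not tested. Where a group was left with 1 library, that library was assumed to vary like the others.

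Same-numbered libraries correlated at -0.0398 to 0.0272 in their deviations from the group means, so the numbers were not taken to pair them, and the replicate block changed no call of a member.

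Calls of members that changed were Myl2 in -Dox 3d against +Dox (5.79 in DESeq2, and 5.12 to 10.07 with 1 library left out), Myl4 in satellite cells against +Dox (2.81 with only the 2 conditions, 2.28 to 3.43 with 1 library left out), Myl2 in satellite cells against -Dox 3d (-3.89 with only the 2 conditions), Myl3 in satellite cells against +Dox (7.26 to 8.51 with 1 library left out) and Myl2 in that comparison (1.24 to 6.18). The sign was not stable with 1 library left out for Myl1 in satellite cells against +Dox (-0.94 to 0.18) and for Myl6b there (-1.13 to 0.10), and Myl3 in -Dox 3d against +Dox ranged from 0 to 7.26, with 0 reached without -Dox 3d replicate 1. None of these 3 was called.

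Shares depended on the length. In -Dox 3d the share of Myl1 was 78.95% by raw counts, 91.89% by the longest transcript and 79.38% by the coding length, and that of Myl4 was 21.05%, 8.1% and 20.62%. By raw counts and coding length the Myl4 share was 1.265% and 1.233% in +Dox and 17.22% and 17.01% in satellite cells. Mylpf in -Dox 3d had 99.92% by raw counts, 99.94% by the longest transcript and 99.93% by the coding length, and Myl2 the remaining 0.0753%, 0.0649% and 0.0724%. In satellite cells Mylpf had 94.78% by raw counts and 94.97% by the coding length, and Myl2 5.22% and 5.03%. With 250 bases in place of 1 kb, 2 members in place of 4 had H3K27Ac in +Dox. The histone lists hold no height, so a stricter threshold was not run on them.

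Of 40 changes named for partner genes, 27 were called under every alternative that gave an adjusted p, and none reversed. Members with few reads are limited by depth, since 3 counts correspond to 2.22 to 4.02 normalized counts.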
